A study of Homo sapiens with 12 samples.

Results

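The comparison described here is that of HEK293T cells given a plasmid for miR-211 with HEK293T cells given a control plasmid. Its members are the 3 libraries labelled 293T- miR-211 and the 3 labelled 293T- Control, 6 of the 12 libraries of a series whose title names mRNA splicing and intronic microRNAs. HEK293T, derived from human embryonic kidney and holding the SV40 large T antigen, takes up foreign DNA readily. Both groups received 500 ng of plasmid by lipofection, and RNA was purified 24 h later and sequenced as paired reads of 126 nt. The control plasmid is named in the labels only as Control, and neither plasmid's promoter or insert is described. By the labels, GFP fluorescence put the share of transfected cells at no less than 50%, so each library mixes cells that took up a plasmid with cells that did not. The remaining 6 libraries, with an siRNA against U1 RNA or a scrambled oligo, are used only where the difference between both experiments is tested and for a few counts set beside those of the plasmid libraries.

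MicroRNAs are short RNAs that an Argonaute protein carries to messenger RNAs. Pairing between the microRNA's seed, bases 2 to 8 from its 5′ end, and a site in the 3′ UTR commonly shortens the messenger's life and lowers its translation. The primary transcript is cut to a hairpin by DROSHA with DGCR8, exported by XPO5 and cut again by DICER1. miR-211 lies in an intron of TRPM1, a cation channel gene used by melanocytes, and is known mainly from pigment cells, the retina and melanoma. It belongs to the same family as miR-204, which lies in an intron of TRPM3.

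The sequences that the comparison turns on were taken from RefSeq on GRCh38.p14. They are shown because the counts described first come from the hairpin and the later site counts come from the seeds. In the mature RNAs, capitals mark the seed. In the hairpin, capitals mark both mature arms.
hsa-miR-211-5p: uUCCCUUUgucauccuucgccu
hsa-miR-211-3p: gCAGGGACagcaaaggggugc
hsa-miR-204-5p: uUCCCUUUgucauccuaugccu
MIR211 hairpin: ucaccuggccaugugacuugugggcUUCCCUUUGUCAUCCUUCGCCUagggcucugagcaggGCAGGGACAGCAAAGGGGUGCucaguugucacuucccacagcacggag
miR-211-5p and miR-204-5p share their seed and differ at 2 bases, U17A and C18U, with miR-211-5p's base first and positions counted from the 5′ end. Any gene with a seed site for the one has it for the other.

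Total counts over genes were 6070116 to 8459646 in the miR-211 libraries and 6226067 to 7484566 in the controls. In every pair the miR-211 library had the larger share of its uniquely mapped read pairs outside annotated exons: 24.3% against 21.8% in pair 1, 16.3% against 14.5% in pair 2 and 22.9% against 16.8% in pair 3. It also had more genes with at least 1 count, 28559 to 34045 against 24728 to 30083. The ratio of both strand columns was 0.990 in miR-211 replicate 3 and 1.08 to 1.10 in the other 5 plasmid libraries. Of 10 HEK293 markers, 8 passed the filter on low counts, and the list's summed level was 245.8 to 258.5 CPM (counts scaled to library size) with miR-211 and 251.5 to 274.5 CPM in controls. PAX2 and LHX1 had at most 4 and 5 counts in a library. Summed markers of melanocytes reached at most 22.4 CPM, of fibroblasts 8.55 CPM and of blood 4.68 CPM in any of the 6 libraries, and no marker was at 0 in all 6.

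MIR211 itself was the gene that changed. Its gene (ENSG00000207702, chr15:31065032-31065141, minus strand, GRCh38) lies wholly within an intron of TRPM1. The miR-211 libraries had 1646, 1997 and 1976 MIR211 read pairs in replicates 1 to 3, and the controls of the same numbers had 1, 9 and 1. All miR-211 libraries were far above all controls. On the CPM scale this was 258.5 ± 15.8 against 0.535 ± 0.674 (SD, n = 3 each). The fitted log2 fold change was 8.88 ± 0.20 (SE), with an adjusted p of 2.52e-12 in edgeR's quasi-likelihood test with replicate number as a block. The ratio of summed counts, scaled for library size, was 474, with an exact 95% interval of 265 to 950 that covers counting error only. The mature RNA, at 22 bases, is far shorter than a read, and whether the read pairs stem from a hairpin transcript or from the plasmid was not tested. The labels do not say that replicates were separate cultures, so every p-value here measures the spread between these libraries.

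MIR211 was higher in every pair, by an amount that differed between pairs. MIR211's log2 difference was 9.28 in pair 1, 7.25 in pair 2 and 9.30 in pair 3. The control of pair 2 held 9 counts and the other controls 1 each, while the miR-211 library of pair 2, 241.8 CPM, lay close to the 273.3 and 260.3 CPM of the other two. MIR211 read pairs fell in both strand columns in nearly equal number: 771, 974 and 957 in one and 875, 1023 and 1019 in the other. With the share of read pairs outside exons added as a covariate, which leaves 1 residual degree of freedom, the log2 fold change was 6.54 and the call was lost (adjusted p = 1.00).

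**Figure D1:**
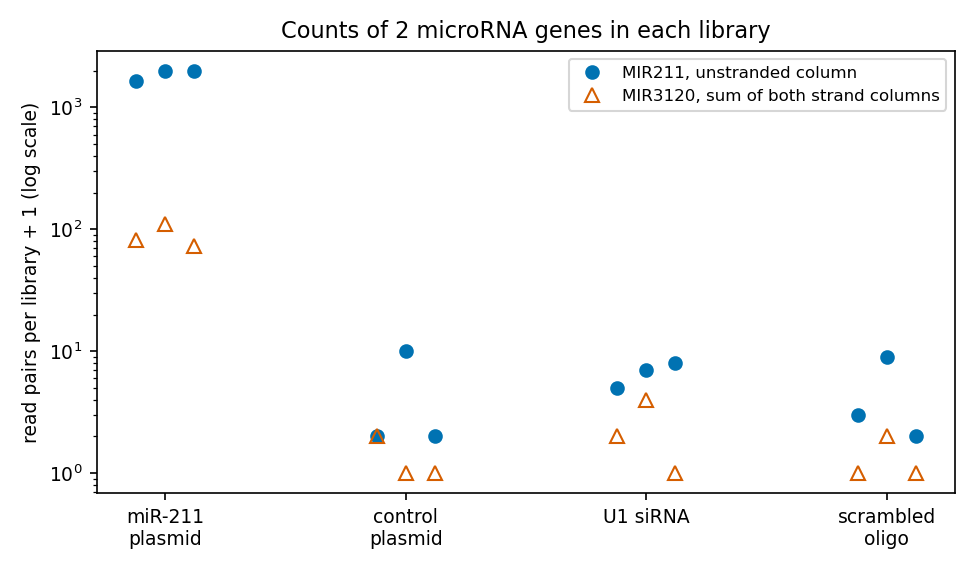
Read pairs per library plus 1, on a log axis, for MIR211 in the unstranded column (filled circles) and for MIR3120 as the sum of both strand columns (open triangles), with replicates 1 to 3 from left to right within each of the 4 groups. MIR211 stands at 1646 to 1997 pairs in the miR-211 libraries and at 9 or fewer in every other library, and MIR3120 at 72 to 109 pairs in the miR-211 libraries and at 3 or fewer elsewhere.

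A second microRNA locus was higher in the miR-211 libraries and is invisible in the unstranded counts. MIR3120 (chr1:172138808-172138888, plus strand, GRCh38) lies wholly inside the hairpin gene MIR214 (chr1:172138798-172138907, minus strand), and both lie inside an exon of the antisense RNA gene DNM3OS. A read pair there overlaps several genes and is counted for none of them, so MIR3120 and MIR214 stood at 0 in the unstranded column of all 12 libraries. When pairs are split by strand, MIR3120 becomes countable. The strand columns do not show which strand an RNA came from, since their ratio was 0.990 to 1.10 in the plasmid libraries. Pairs counted for MIR3120 are therefore signal of the shared locus and cannot be assigned to MIR3120 over MIR214 or DNM3OS. This locus was singled out after its values were seen. Its hairpin context is given with the bases that MIR3120 covers, on the opposite strand, in capitals.
MIR214 hairpin: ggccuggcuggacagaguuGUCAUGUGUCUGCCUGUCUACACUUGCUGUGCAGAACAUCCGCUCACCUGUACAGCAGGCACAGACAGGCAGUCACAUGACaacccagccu
The first strand column (column 3 of the count tables) held 49, 57 and 36 MIR3120 pairs in miR-211 replicates 1 to 3 and 1, 0 and 0 in the controls. The second (column 4) held 31, 52 and 36 against 0, 0 and 0. Every miR-211 library lay above every control in both columns. By edgeR, MIR3120 was higher by 6.62 ± 0.55 on the log2 scale in the first column (adjusted p = 2.74e-08) and passed in the second too (adjusted p = 1.72e-09). In the first, the ratio of totals was 130, with a counting interval of 22.9 to 5165. In the second, where the controls are all at 0, it was at least 37.2-fold higher against a floor of 3 counts over the group.

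MIR3120 read pairs, summed over both strand columns, came to 80, 109 and 72, which is 4.86%, 5.46% and 3.64% of MIR211's pairs in the same libraries. The 6 libraries of the U1 experiment held 5 MIR3120 pairs in all. DNM3OS (chr1:172138397-172144840, minus strand), the precursor of miR-214 and miR-199a2, had 14, 23 and 16 unstranded counts with miR-211 and 2, 3 and 4 in controls. Its groups did not overlap, with a ratio of totals of 5.47 (counting interval 2.67 to 12.6). It did not pass (log2 fold change 2.42 ± 0.44, adjusted p = 0.196). In edgeR, DNM3OS passed with no filter on low counts (adjusted p = 0.000162), without pair 1 (0.0191) and without pair 2 (0.0301). It did not pass without pair 3 (0.993) or with each library's trend with GC content removed (0.0949). Nor did it pass in limma-voom (adjusted p = 0.123) or DESeq2 (0.9998). Passing in edgeR did not mark a larger effect for DNM3OS. With no filter it had 2.41 ± 0.44 (edgeR, unadjusted p = 2.56e-08), against an unadjusted p of 5.83e-05 in the main fit. Without pair 3 the log2 fold change was larger, and its SE smaller, than without pair 1 (2.28 ± 0.54). The p-values of these fits are not on one scale, so they cannot show that DNM3OS depends on a pair or on the filter. DNM3, whose intron holds the locus on the other strand, had 53 counts over the miR-211 libraries and 65 over the controls, and MIR199A2 had 0 throughout. The longest run of bases shared by the MIR211 and MIR214 hairpins, on either strand, is 9, against 17 for MIR211 and MIR204. Whether the plasmid holds sequence of this locus was not tested, since its sequence was not analysed here.

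Host and family genes did not pass. TRPM1, the host gene, had 11, 1 and 4 counts with miR-211 and 5, 1 and 11 in controls. The groups overlapped, with a ratio of 0.873 between totals (counting interval 0.413 to 1.84), and the gene lay below the filter on low counts. TRPM3 was higher in 3 of 3 pairs, with 16, 9 and 19 counts against 7, 3 and 15, and did not pass (log2 fold change 0.80 ± 0.37, adjusted p = 0.666). MIR204 had 1 count in the 6 libraries together.

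No other gene passed. Of 12685 genes tested by edgeR, 1 was called higher, MIR211 (0.00788%), and 0 lower (0%). At an unadjusted p under 0.05, 542 genes (4.27%) were higher and 401 (3.16%) lower, 7.43% together. DESeq2 and limma-voom called MIR211 and 1 more gene each, the ribosomal protein gene RPS28, and 0 lower. With no filter on low counts edgeR called 42, of which 32 were higher and 10 lower. Signs were shared by all 3 pairs in 1864 genes (14.7%) that were higher and 1844 (14.5%) that were lower. In bulk RNA, a change in the number of cells of one kind and a change in RNA per cell cannot be told apart.

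The spread of fold changes was narrow for well-covered genes. Leaving out MIR211, 0 of the 7397 genes with a mean of at least 10 CPM differed by 2-fold, and all lay within 1.5-fold. Among all 12684 others, 37 reached 2-fold, each with a mean below 10 CPM. Above 100 CPM, 347 of 1997 genes (17.4%) were higher and 431 (21.6%) lower in 3 of 3 pairs. Across those genes without MIR211, the log2 differences of pairs 1 and 3 went together (r = 0.46 over 1996 genes) more than those of pairs 2 and 3 (0.19) or 1 and 2 (0.026). At a mean of at least 10 CPM these values were 0.17, 0.10 and -0.10, and over all 12684 genes they were 0.043, 0.045 and 0.034, with no such order. Genes are not independent replicates, and those correlations are a description.

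**Figure D2:**
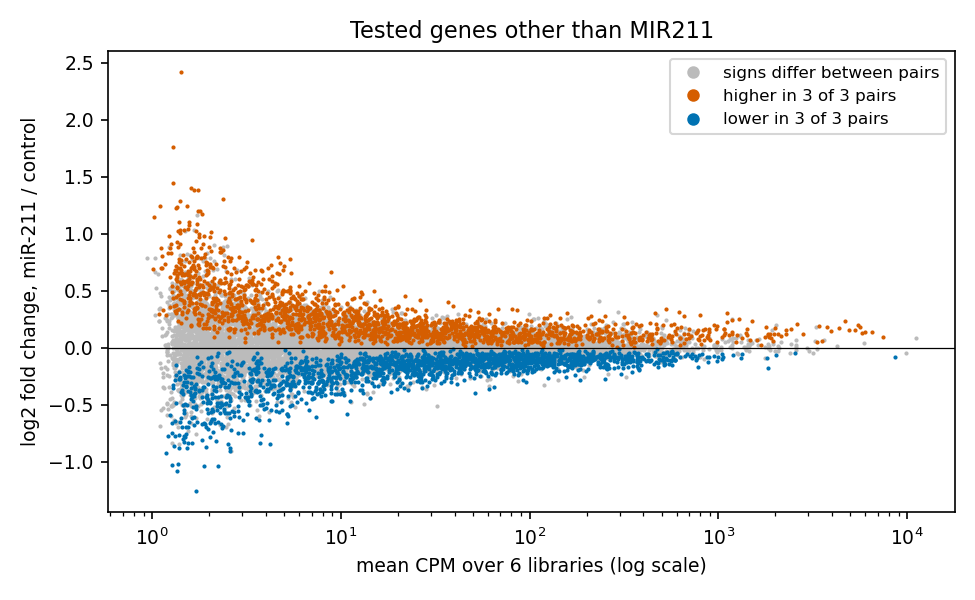
Fitted log2 fold change (miR-211 over control) against mean CPM over the 6 libraries on a log axis, for the 12684 tested genes other than MIR211, each point a gene, coloured by whether its 3 pair differences share a sign. Spread narrows with level, and no gene with a mean of at least 10 CPM reaches a log2 fold change of 1.

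Pair 2 stood apart from pairs 1 and 3. With both libraries of pair 2 left out, edgeR called 188 of 12927 genes (133 higher, 55 lower), against 20 of 12793 without pair 1 and 1 of 12360 without pair 3. Each fit with a pair left out has 1 residual degree of freedom, and their p-values are not on one scale. RPS28 had a log2 fold change of 0.290 ± 0.072 without pair 1 (edgeR, unadjusted p = 5.72e-05). Without pair 3 it had 0.290 ± 0.060 (edgeR, unadjusted p = 0.000888). The smaller SE had the larger p, so the 1 call without pair 3 cannot be set beside the other counts. Of the 185 calls made without pair 2, other than MIR211, that were also tested on all libraries, 68 (36.8%) had the same sign in pair 2. Pair 2's libraries had the fewest genes detected and the smallest shares outside exons in each group, and the part of these in the result was not tested. MCM7, a subunit of the replicative helicase, shows the pattern: 1488, 1077 and 1277 CPM with miR-211 against 997, 1111 and 1100 CPM, that is, above its control in pairs 1 and 3 and slightly below it in pair 2. The U5 snRNP proteins PRPF8 and SNRNP200 were higher by 0.53 and 0.52 in pair 1 and 0.35 and 0.35 in pair 3, against 0.07 and 0.06 in pair 2, on the log2 scale. Without pair 2, MCM7 (adjusted p = 1.22e-06), PRPF8 (6.54e-08) and SNRNP200 (2.09e-07) were called by edgeR.

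None of the 12 protein-coding genes with the smallest p among those higher in 3 of 3 pairs passed. RPS28, a protein of the small ribosomal subunit, stood at 1082, 1195 and 1385 CPM with miR-211 and at 871, 995 and 1099 CPM in controls. Each miR-211 library was above its own control, while the groups overlapped. The log2 fold change was 0.30 ± 0.05 (adjusted p = 0.137). RPS28 was called by DESeq2 (adjusted p = 0.0190) and limma-voom (0.0335) and with the first strand column (0.0163), and with each library's trend with GC content removed it had a log2 fold change of 0.24 ± 0.05, above 0 in 3 of 3 pairs, and did not pass (adjusted p = 0.573). RPS21 (0.29), RPLP2 (0.25) and RPL37 (0.22), 3 more ribosomal proteins, had log2 fold changes of like size.

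ELOB, the elongin B subunit of ubiquitin ligases, was at 634, 746 and 793 CPM against 533, 600 and 660 CPM. Its pair differences were 0.25, 0.31 and 0.27, nearly equal, with a log2 fold change of 0.28 ± 0.05 (adjusted p = 0.196). With counts of the first strand column alone ELOB passed (adjusted p = 0.00418), and with the second it did not (adjusted p = 0.643). ELOB overlaps the gene SRRM2 on the opposite strand by its annotated span, and the part of this overlap in the gap between columns was not tested. GAPDH, the glycolytic enzyme often taken as a reference gene, stood at 4664, 5046 and 5463 CPM against 4158, 4392 and 4327 CPM. The groups of GAPDH did not overlap, and its log2 fold change was 0.23 ± 0.05 (adjusted p = 0.397). The share of all tested genes without overlap is not given here. For GAPDH and the other named genes that did not pass, a lack of overlap is a description only. The others were NAA38 of an N-terminal acetyltransferase (0.31), OST4 of the oligosaccharyltransferase (0.28), POLR2L, a subunit shared by RNA polymerases (0.27), the linker histone HIST1H1E (0.34), ATP6V0D1 of the vacuolar proton pump (0.28) and PRPF8 of the spliceosome (0.32). Of these 12 genes, 11 passed in edgeR without pair 2 (all but POLR2L, adjusted p at most 0.0146), 4 without pair 1 (RPS28, RPS21, POLR2L and HIST1H1E, at most 0.0411) and all 12 with no filter on low counts (at most 0.0479). Over all genes tested, 133 of 12927 were called higher without pair 2, 11 of 12793 without pair 1 and 32 of 44268 with no filter. The 12 genes were chosen for small p in these same libraries, so their passing in part of them is no independent support. Passing with no filter did not mark a larger effect for RPS28. It had 0.291 ± 0.050 with no filter (edgeR, unadjusted p = 6.95e-09) and 0.304 ± 0.049 in the main fit (edgeR, unadjusted p = 2.16e-05).

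The 12 protein-coding genes at the lower end did not pass either. ETNK1, an ethanolamine kinase of phospholipid synthesis, stood at 177, 173 and 153 CPM with miR-211 and at 192, 217 and 199 CPM in controls, with a log2 fold change of -0.28 ± 0.07 (adjusted p = 0.467). All 3 miR-211 libraries lay below all controls. HMGN1, a nucleosome-binding protein, had almost the same difference in every pair, -0.25, -0.26 and -0.29, although its level varied more between pairs than within them (92.2 to 132 CPM with miR-211, 110 to 161 CPM in controls). COMMD8 (-0.28), GLMN, an inhibitor of cullin ligases (-0.30), the scaffold protein LIN7C (-0.23) and the mitochondrial protein HIGD1A (-0.24) followed. CBX3, a heterochromatin protein, was uneven: its pair differences were -0.25, -0.06 and -0.52. AIDA (-0.58) and the retinol dehydrogenase RDH14 (-0.60) had the widest fold changes and low levels, at most 13.7 and 10.4 CPM. PDIA3, a disulfide isomerase (-0.35), RANBP1 of the Ran cycle (-0.26) and the reductase CYB5R4 (-0.34) complete the set. In edgeR without pair 2, 8 of the 12 passed (GLMN, COMMD8, LIN7C, HIGD1A, PDIA3, AIDA, RANBP1 and CBX3, adjusted p at most 0.0493), and without pair 1 ETNK1 (0.00468) and PDIA3 (0.0151). With no filter on low counts ETNK1, PDIA3 and CBX3 passed (at most 0.0479). Over all genes tested, 55 of 12927 were called lower without pair 2, 9 of 12793 without pair 1 and 10 of 44268 with no filter. These 12 genes too were chosen for small p in the same libraries, so such calls are no independent support.

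**Figure D3:**
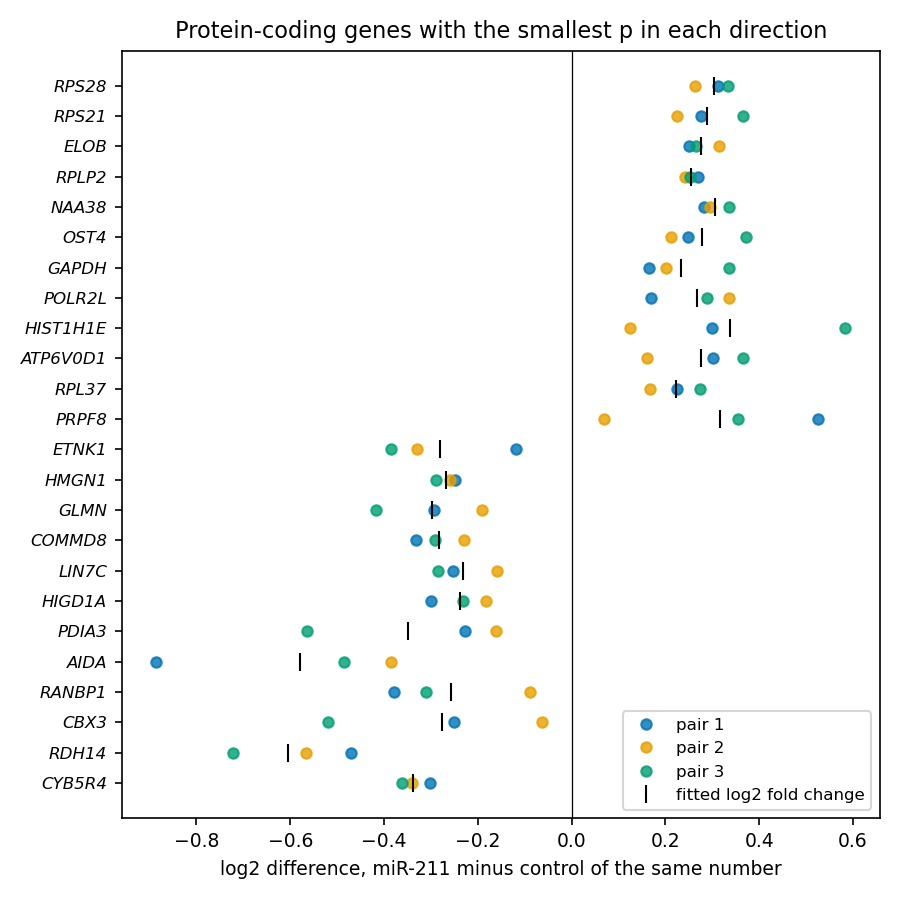
Log2 difference (miR-211 minus the control of the same number) in pairs 1, 2 and 3 for the 12 higher and 12 lower protein-coding genes with the smallest p among those with the same sign in every pair, with the fitted log2 fold change as a black tick. Pairs lie close together for RPLP2, HMGN1 and CYB5R4 and far apart for PRPF8, HIST1H1E and CBX3.

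The sign of small differences went with the GC content of the transcript, a pattern looked for after the data were seen. Among genes with a mean of at least 100 CPM, those higher in 3 of 3 pairs had a median GC content of 51.1%, those lower 39.5%, and all 1996 genes 43.9%. Across these genes Spearman's rho of log2 fold change with GC content was 0.64, and 0.45, 0.33 and 0.55 in pairs 1 to 3. The same measure in the pairs of the U1 experiment was 0.39, 0.25 and 0.026. Over the genes with a mean of at least 10 CPM it was weaker: 0.41 for the log2 fold change, 0.14, 0.27 and 0.38 in pairs 1 to 3, and 0.35, 0.14 and -0.11 in the U1 pairs. Taking genes of at least 10 CPM in quintiles of GC content, 47 of the 1480 in the lowest quintile were higher and 501 lower in 3 of 3 pairs, while in the highest 392 of 1479 were higher and 76 lower. When each library's trend with GC content was removed, 1711 genes were higher and 1592 lower in 3 of 3 pairs, against 1864 and 1844 without, and MIR211 was still the 1 gene called. ETNK1 (34.6% GC), GLMN (35.1%) and LIN7C (33.5%) against RPS28 (59.9%) and ELOB (61.1%) show how the named genes lie on that axis. Of the 24 named protein-coding genes, 4 lay on the other side of the median of 43.9%: RPL37, higher at 43.2%, and RANBP1 (55.9%), RDH14 (50.0%) and AIDA (45.3%), lower.

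**Figure D4:**
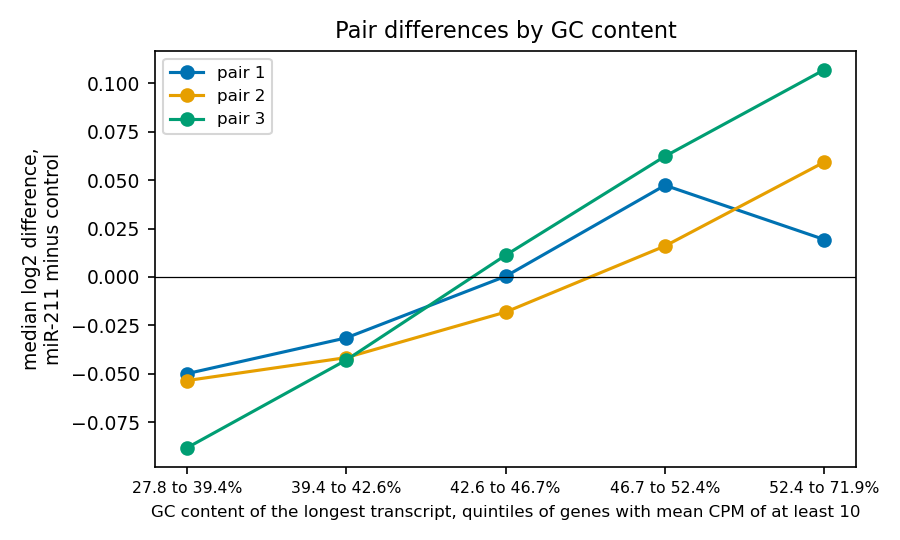
Median log2 difference (miR-211 minus control) in each of the 3 pairs for genes with a mean of at least 10 CPM, split in quintiles by the GC content of the longest transcript. In all pairs the lowest quintile has a median below 0 (-0.05, -0.05 and -0.09) and the highest quintile a median above 0 (0.02, 0.06 and 0.11).

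Genes with a site for the miR-211-5p seed lay almost where genes without one did. The site searched is the 8mer AAAGGGAA, read on the messenger's own strand in the longest annotated 3′ UTR, of which 1531 of 19133 protein-coding genes (8.00%) hold one. The median log2 fold change was -0.0056 over the 1084 tested genes with an 8mer and 0.0058 over the 6213 with no 8mer, 7mer or 6mer match, against 0.0073 over all genes tested. In 3 of 3 pairs, 13.7% of the 8mer genes were higher and 16.3% lower, against 14.8% and 15.0% of the genes without a site. The 126 genes with several 8mers had a median of 0.011.

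Above 100 CPM the classes differed more. There, 43 of 164 genes with an 8mer (26.2%) were lower and 17 (10.4%) higher in 3 of 3 pairs, against 20.2% and 19.6% of 1236 genes without a site. The median GC content of the former was 41.8% and of the latter 45.1%. With the GC trend removed, the shares lower in 3 of 3 pairs were 13.4% and 13.5%, and the medians 0.0084 and 0.0070. For the 3p arm, whose 8mer is GTCCCTGA (639 of 19133 UTRs, 3.34%), the 392 tested genes had a median of 0.031 and those without a site -0.0078. Their median GC contents were 48.2% and 45.1%, and with the GC trend removed the medians were 0.018 and -0.0019. A match is a description of the sequence and not a measured binding site.

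The 6 genes with an 8mer that had the smallest p among those lower in 3 of 3 pairs are shown with their sites, because they are where a seed effect would be read first, followed by the 4 named reported targets that hold one, of which SIRT1 and SOX4 had a log2 fold change below 0 and ITPR1 and HOXC8 one above 0. Each line gives the 14 bases before the match and the match in capitals, from GENCODE 29 transcripts.
CYB5R4: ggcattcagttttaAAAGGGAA
LRRC40: gcagtgtttttctaAAAGGGAA
ANKRD13C: gctttcagtgaagaAAAGGGAA
SCOC: ttggaaaatggaatAAAGGGAA
SDHD: tgggaataatggacAAAGGGAA
AEBP2: aatatgtattcataAAAGGGAA
SIRT1: tgttaaattaatgtAAAGGGAA
SOX4: agagtttaaagagaAAAGGGAA
ITPR1: ataatgaattttttAAAGGGAA
HOXC8: ttaacatactacctAAAGGGAA
CYB5R4, an oxidoreductase of the endoplasmic reticulum, stood at 25.1, 27.5 and 22.8 CPM with miR-211 and at 31.0, 34.9 and 29.4 CPM in controls, with no overlap. Its log2 fold change was -0.34 ± 0.10 (adjusted p = 0.606), its UTR holds 2 such sites, and the first begins at base 4671 of 7546. SDHD, the membrane anchor of succinate dehydrogenase, stood at 236, 251 and 232 CPM against 268, 305 and 247 CPM. Its groups overlapped, and its log2 fold change was -0.19 ± 0.06 (adjusted p = 0.613). AEBP2, a partner of Polycomb repressive complex 2, had a log2 fold change of -0.21, LRRC40 -0.19, ANKRD13C -0.32 and SCOC -0.20, and their adjusted p lay between 0.606 and 0.625 with those of the other two. ANKRD13C passed without pair 2 (adjusted p = 0.0234).

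Reported targets of miR-211 were split evenly by sign. Of a list of 51 genes taken as reported targets of miR-211 or its family, 44 were tested and 0 called, 4 were higher and 6 lower in 3 of 3 pairs, and the median log2 fold change was -0.0017, with 22 above 0 and 22 below. At an unadjusted p under 0.05, 2 were higher and 3 lower. The 25 that hold an 8mer had a median of -0.034. SIRT1, an NAD-dependent deacetylase, stood at 25.1, 31.4 and 27.4 CPM against 33.5, 30.5 and 36.5 CPM. It was below its control in pairs 1 and 3 and level with it in pair 2 (log2 fold change -0.26 ± 0.11, adjusted p = 0.645). SOX4, a transcription factor, had pair differences of -0.01, -0.14 and -0.29 and a log2 fold change of -0.15 ± 0.06 (adjusted p = 0.645).

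On the other side, ITPR1, a calcium release channel with an 8mer in its UTR, stood at 12.8, 12.7 and 14.8 CPM against 9.79, 8.02 and 12.1 CPM. It was higher in 3 of 3 pairs (log2 fold change 0.43 ± 0.14, adjusted p = 0.625). The growth factor FGF2 was likewise higher in every pair (0.51, adjusted p = 0.678). The neurotrophin receptor NTRK2 (1.03) and the homeobox gene HOXC8 (0.76) had the largest values of those named, never exceeded 3.49 CPM in a library, and went the other way in pair 2. SNAI1, a repressor active in epithelial to mesenchymal transition, had -0.88 at no more than 2.39 CPM. The osmotic stress factor NFAT5 had -0.16.

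No gene of the machinery that makes and uses microRNAs passed. Of 20 tested genes of microRNA biogenesis 2 were higher and 3 lower in 3 of 3 pairs (median 0.034), and of 27 genes of silencing 2 were higher and 6 lower (median -0.019). DROSHA was at 81.0, 67.1 and 77.3 CPM with miR-211 and at 69.2, 67.4 and 68.7 CPM in controls, above its control in pairs 1 and 3. Its log2 fold change was 0.13 ± 0.08 (adjusted p = 0.728). DICER1 was at 56.8, 61.5 and 57.0 CPM against 66.3, 58.5 and 57.7 CPM, with overlapping groups (-0.05 ± 0.08, adjusted p = 0.905). DGCR8 had 0.06 and XPO5 0.08. The Argonaute genes had log2 fold changes of 0.08 (AGO1), -0.13 (AGO2), -0.03 (AGO3) and -0.12 (AGO4), with adjusted p from 0.782 to 0.946. DDX6, a helicase of repressed messengers, was lower in every pair (-0.18 ± 0.06, adjusted p = 0.625), and the decapping enzyme DCP2 had -0.19. The helicase DDX17 and the RNA-binding protein KHSRP, both of which take part in processing some primary transcripts, had -0.29 and -0.21. DDX17 (adjusted p = 1.05e-05) and DCP2 (0.0152) passed without pair 2, and DDX17 also with no filter on low counts (0.0327).

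The series is titled for splicing, so the splicing proteins were read next, by their gene counts only, since these files do not show which exons were joined. The 3 proteins of the U1 particle did not pass. SNRNP70 stood at 13.8, 14.9 and 17.8 CPM against 13.6, 13.7 and 17.4 CPM, each pair nearly level (log2 fold change 0.06 ± 0.12, adjusted p = 0.930). SNRPA had -0.07 and SNRPC 0.08. Over 15 genes of the U1 particle and its partners, 2 were higher and 4 lower in 3 of 3 pairs, with a median of -0.059, which was -0.0017 once the GC trend was removed. In the U2 particle 1 of 17 was higher and 2 lower (median 0.00060), with SF3B5 at 0.21. SF3B5 (adjusted p = 0.0368) and SF3B3 (0.0189) passed without pair 2.

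Of 24 genes for the U5 particle and the tri-snRNP, 5 were higher and 2 lower in 3 of 3 pairs, with a median of 0.040. PRPF8, the large protein at the catalytic centre of the spliceosome, stood at 772, 581 and 708 CPM against 536, 554 and 554 CPM, with no overlap (log2 fold change 0.32 ± 0.07, adjusted p = 0.467). SNRNP200, the helicase that unwinds U4 from U6, stood at 561, 442 and 524 CPM against 391, 425 and 412 CPM (0.31 ± 0.07, adjusted p = 0.467). Both were nearly level in pair 2. SR proteins and their partners gave 3 higher and 4 lower of 22, with SRRM2 at 0.29 and the kinase CLK3 at 0.24. Of 27 hnRNP proteins 0 were higher and 6 lower in 3 of 3 pairs (22.2% lower, against 14.5% of all genes). The share lower rises with level: it was 17.4% of genes with a mean of at least 10 CPM and 21.6% above 100 CPM. The shares higher there were 14.1% and 17.4%, and the list was not matched for level. The hnRNP genes had a median of -0.041, with 0 at an unadjusted p under 0.05. HNRNPA0 had -0.15 and HNRNPA3 -0.11. With the GC trend removed the hnRNP counts were 2 and 4.

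Ribosomal protein genes had the largest share of one sign among the 19 lists drawn. Of 80, 48 (60%) were higher and 3 (3.75%) lower in 3 of 3 pairs, against 14.7% and 14.5% of all genes. Their median log2 fold change was 0.094, and 0.10, 0.12 and 0.058 in pairs 1 to 3. By edgeR 0 passed, and 33 were higher and 1 lower at an unadjusted p under 0.05. With the GC trend removed, 33 were higher and 3 lower, and the median was 0.063. Many of these genes have near-identical pseudogene copies, and pairs that map to several places are not counted, so single genes among them are uncertain. Their proteins build the cytoplasmic ribosome.

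The 15 tested genes of the mitochondrial genome came next, with 6 higher and 0 lower in 3 of 3 pairs and a median of 0.090 (0.11 with the GC trend removed). MT-CO2, of cytochrome oxidase, stood at 6414, 5945 and 5809 CPM against 5660, 5590 and 5328 CPM. The groups of MT-CO2 did not overlap, and its log2 fold change was 0.13 ± 0.05 (adjusted p = 0.631). MT-ND4L, of complex I, had 0.20. Of 25 histone genes 4 were higher and 2 lower. Their median difference was 0.25 in pair 1, 0.052 in pair 2 and -0.079 in pair 3. HIST1H1E stood at 450, 535 and 800 CPM against 365, 490 and 533 CPM, and HIST1H1C (0.31) was higher in pairs 1 and 3 and level in pair 2. HIST1H1C passed without pair 2 (adjusted p = 6.54e-08) and with no filter on low counts (0.00317).

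**Figure D5:**
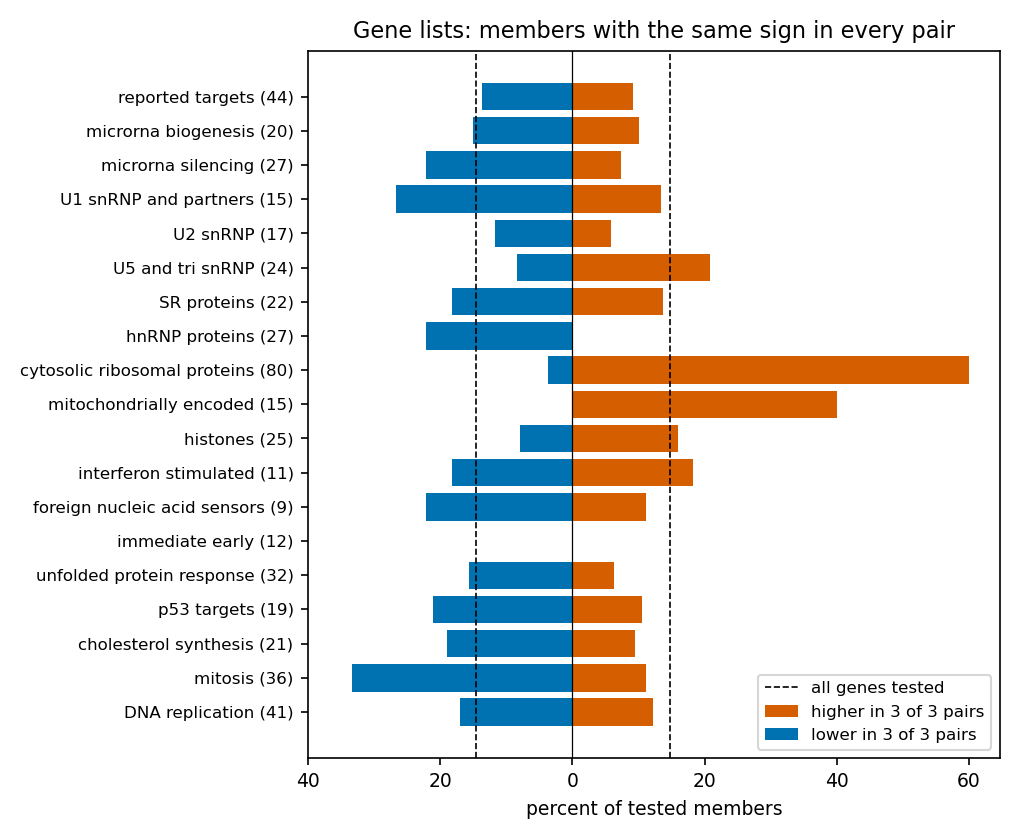
Share of the tested members of 19 gene lists that were higher (right) or lower (left) in 3 of 3 pairs, in percent, with the number tested in parentheses and dashed lines at the shares over all tested genes, 14.7% and 14.5%. Ribosomal proteins reach 60% and mitochondrially encoded genes 40% on the higher side, and mitosis genes 33.3% on the lower side.

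Lists that report how cells respond to foreign nucleic acid or stress gave small and mixed counts. Interferon-stimulated genes had 2 higher and 2 lower of 11 tested, with 19 of the 30 in the list under the filter. IFIT3 stood at 1.49, 1.45 and 1.32 CPM against 2.21, 2.19 and 2.39 CPM (log2 fold change -0.67 ± 0.33, adjusted p = 0.678), without overlap and at low level. IFI35 had 0.28. The list of sensors of foreign nucleic acid had 1 higher and 2 lower of 9, with the double-stranded RNA kinase EIF2AK2 at -0.16. IRF3, a transcription factor in that list and not itself a sensor, had -0.60 ± 0.29 at no more than 3.85 CPM. Of 12 immediate early genes none had the same sign in every pair. DUSP1 had -0.26 and FOSL2 0.35. The unfolded protein response had 2 higher and 5 lower of 32, with the chaperone HSP90B1 at -0.13. Targets of p53 had 2 and 4 of 19, with TP53INP1 at 0.40 and MDM2 at -0.15, and cholesterol synthesis 2 and 4 of 21, with EBP at 0.17 and the sterol sensor INSIG1 at -0.35, which passed without pair 2 (adjusted p = 0.0152).

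Genes of mitosis had the largest share on the lower side among the 19 lists, 12 of 36 (33.3%), against 14.5% of all genes. Of genes with a mean of at least 10 CPM 17.4% were lower, and above 100 CPM 21.6%. The list was not matched for level. Its share higher was 4 of 36 (11.1%, against 14.7%), and its median -0.020. CDK1, the kinase that drives entry into mitosis, stood at 347, 405 and 311 CPM against 397, 431 and 370 CPM (log2 fold change -0.18 ± 0.06, adjusted p = 0.613), below its control in each pair and overlapping as groups. NUF2, of the kinetochore, had -0.22. At an unadjusted p under 0.05, 3 of the 36 were higher and 3 lower. With the GC trend removed 4 were higher and 8 lower in 3 of 3 pairs, against 1711 and 1592 of all 12682 genes. DNA replication had 5 higher and 7 lower of 41, with MCM7 at 0.25 and CDC45 at 0.18, both higher in pairs 1 and 3 only. Without pair 2 both passed (adjusted p = 1.22e-06 for MCM7 and 0.0116 for CDC45).

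Non-coding genes named by the same rule did not pass. LINC00649 (0.57), an antisense RNA by its annotation, stood at 7.80, 8.36 and 8.04 CPM with miR-211 and at 6.16, 5.25 and 5.05 CPM in controls, without overlap. In the unstranded column, pairs that overlap exons on both strands are counted for neither gene, while other RNA of the opposite strand is not set apart. The log2 fold change of LINC00649 was -0.014 in the first strand column. AP000347.1 (0.65) and LINC01572 (0.50) were also higher. NPM1P27 (-0.39) and HMGB1P6 (-0.36), processed pseudogenes of abundant messengers, and AL390728.6 (-0.37) were lower in every pair. HMGB1P6 passed without pair 1 (adjusted p = 0.00949) or pair 2 (0.00217), NPM1P27 without pair 1 (0.00468), and both with no filter on low counts (0.0304 and 0.0198). Reads of a pseudogene and of its parent gene may not be told apart.

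Whether the change differed from that in the U1 experiment was tested over all 12 libraries. There MIR211 counts were 4, 6 and 7 after the siRNA and 2, 8 and 1 after the scrambled oligo, with a log2 fold change of 1.03 ± 0.73 (adjusted p = 1.00). The difference between both changes was 7.83 ± 1.13 on the log2 scale, with an unadjusted p of 4.15e-06 and an adjusted p of 0.0561 in edgeR with a block for each pair, just short of the threshold. It passed without the block (adjusted p = 0.0447) and in DESeq2 (adjusted p = 0.000534). Of 13520 genes tested in edgeR with the block, 0 (0%) were called and 354 (2.62%) had an unadjusted p under 0.05, and the next lowest adjusted p after MIR211 was 0.430.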

How the data were processed

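The deposited values are raw read counts per gene in 1 table per library, and the submitters' processing notes name STAR 2.7.2a, GRCh37 and hg19. All 58735 gene identifiers match GENCODE 29, an annotation on GRCh38, so coordinates here come from GENCODE 29 and not from the deposited files. RNA selection and strandedness of the kit are not stated in the labels. The unstranded column (column 2) was used, and 4 summary rows were dropped, of which pairs outside exons made up 14.5% to 24.3% of uniquely mapped pairs.

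Counts were fitted with edgeR 4.0.16 in R 4.3.3 (TMM, filterByExpr, quasi-likelihood test, Benjamini-Hochberg over all genes tested, called at adjusted p under 0.05), with replicate number as a block. The labels give no meaning to that number. Same-numbered libraries deviated together from their group means (r = 0.248, 0.305 and 0.239 over 12685 genes) and were treated as pairs. Every other pairing was negative. Deviations from a group's mean cancel out within the group, so those negative values are partly fixed by the positive ones and add no support. Pair differences are in log2 CPM (prior count 2).

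Named genes were the 12 protein-coding and 3 non-coding genes in each direction with the smallest p (mean CPM of at least 5, same sign in 3 of 3 pairs), 4 reported targets in each direction (mean CPM of at least 1), 6 genes with an 8mer, up to 2 of each other list, and a set of host, processing and U1 genes. Members, lists and rules were chosen with earlier results of these data known. Alternatives were DESeq2 1.42.0, limma-voom 3.58.1, other scalings and filters, strand columns, a covariate, no block, each pair left out and, added after the data were seen, an offset for each library's trend with transcript GC content (lowess, span 0.3).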

Additional observations from a re-analysis of the deposited data

Results flagged for a closer look

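MIR3120 drew attention because it carries signal in the strand columns, outside the unstranded counts that were tested. Its total over both strand columns was 261 read pairs in the 3 miR-211 libraries and 1 in the 3 controls. Those pairs cannot be assigned to MIR3120 over MIR214 or DNM3OS, and the cause was not tested.

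The share of uniquely mapped pairs outside annotated exons is not part of the gene counts, and in the miR-211 libraries it was 24.3%, 16.3% and 22.9% in replicates 1 to 3, each above the control of the same number. Replicate 2 was below the controls of replicates 1 and 3.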

How the results depend on the processing

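MIR211 kept its direction and its call under every alternative but the covariate, where its log2 fold change was 6.54 and the call was lost. Without the replicate block edgeR also called 1 gene, and the block changed no other call in the comparison of plasmids. It had 417 genes at an unadjusted p under 0.05 against 943 with the block. The count of called genes was 2 with DESeq2, 2 with limma-voom, 42 with no filter (32 higher, 10 lower), 4 and 3 with the first and second strand column, and 1 to 188 with a pair left out. For RPS28 and DNM3OS, effects and SE of like size had p-values far apart between the main fit, no filter and a pair left out. The counts of these fits are therefore not on one scale. The covariate's 1 call was MT-RNR2. The 3708 genes with one sign in 3 of 3 pairs became 8796 with no filter and 6129 to 7080 with a pair left out, where only 2 pairs must share a sign. The difference between experiments was 7.83 without the block and 8.13 in DESeq2, and passed in both. The median over genes with an 8mer, -0.0056, was 0.017 with upper-quartile scaling, -0.017 with no filter, -0.019 with a mean CPM of at least 1, -0.020 with the second strand column, 0.0083 with the GC offset and -0.016 to 0.0020 with a pair left out. Genes that had not passed turned sign: in the first strand column DGCR8 (-0.13), DICER1 (0.00070), AGO1 (-0.014), AGO3 (0.030), AGO4 (0.094), SNRPA (0.11) and LINC00649 (-0.014), in the second NFAT5 (0.015) and SNRNP70 (-0.16), with the covariate PDIA3 (0.0031), CBX3 (0.052), NTRK2 (-0.072), HOXC8 (-0.29), SIRT1 (0.00034), SOX4 (0.018), SNAI1 (0.29), DGCR8 (-0.20), AGO1 (-0.21), IRF3 (0.13), DUSP1 (0.19) and HMGB1P6 (0.067), and with the GC offset DICER1 (0.0014), AGO3 (0.021) and SNRNP70 (-0.011). With a pair left out, DGCR8 ran from -0.033 to 0.17, DICER1 from -0.12 to 0.020, AGO1 from -0.039 to 0.15 and SNRPA from -0.15 to 0.062. The cause of these moves was not tested. Genes of few counts, such as TRPM1, allow no statement at this depth.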

Other observations

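By gene type, processed pseudogenes had the lowest median log2 fold change among types with at least 100 genes tested, -0.11 over 293 genes, with 24 higher and 56 lower in 3 of 3 pairs. Antisense RNA genes had 78 higher and 31 lower of 425 (median 0.049), and lincRNA genes 55 higher and 39 lower of 358 (median 0.040), against 1596 and 1635 of 10952 protein-coding genes (median 0.0051). In the unstranded column, a pair that overlaps exons of genes on both strands is counted for neither. Other RNA of the opposite strand within an antisense gene's exons is still counted for that gene.

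BMP3, a secreted ligand of the bone morphogenetic protein family, was chosen after its values were seen. Its counts were 6, 6 and 5 with the miR-211 plasmid against 1, 1 and 0 with the control plasmid, below the filter on low counts. In the U1 experiment they were 2, 13 and 0 after the siRNA and 3, 4 and 10 after the scrambled oligo.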
